A study of Homo sapiens with 6 samples.

Results

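Krüppel-like factors (KLFs) are transcription factors that bind CACCC and GC-rich elements through a conserved C-terminal set of C2H2 zinc fingers, and differ in the N-terminal part that recruits co-activators or co-repressors. Transcript levels of KLF2, KLF3, KLF4, KLF5, KLF6, KLF7, KLF9, KLF10, KLF11 and KLF13 were examined in HS578T cells, a mesenchymal-like line from a human breast carcinoma. Of these 10 genes, 9 had a probe set carrying their symbol in the platform annotation, 1 probe set each, among 21448 probe sets in all. The transcript level of KLF13 was not analysed here, and KLF13 enters only the promoter counts. The genes were chosen by family membership and on the EP300 minus control difference already seen on these arrays, so the differences below are a description of these cultures.

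The groups were HS578T cells stably transfected with pcDNA 3 carrying EP300 cDNA (EP300 cultures, n = 3) and HS578T cells stably transfected with empty pcDNA 3 (control cultures, n = 3). EP300 acetylates lysines of histones and transcription factors and co-activates transcription. Both groups were pools of G418-selected clones grown in the same medium with serum, insulin and G418, and each culture was hybridised to 1 Affymetrix whole-transcript array. Whether the 3 cultures of a group came from 1 transfected pool or several is not stated. The SDs measure the spread between cultures, which may leave out that between transfections. The limma errors, intervals and p-values draw on that spread and on the variances of all probe sets, and have the same limit.

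Several KLFs work with EP300 or its paralog CREBBP: KLF4 and KLF5 are known to be acetylated by them, and KLF2, KLF4, KLF5, KLF6 and KLF7 act mostly as activators. KLF3 represses through the CTBP co-repressors, as do KLF8 and KLF12. KLF9, KLF10, KLF11 and KLF13 repress through SIN3A and its deacetylases. KLF2, KLF4, KLF6 and KLF10 are also quickly inducible genes, which serum, stress or TGF-beta can switch on, and KLF4 has been studied in breast cancer both as a growth inhibitor and as a stem cell factor.

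The promoters of the members were examined because KLF genes are themselves under the control of GC-box and CACCC-box factors. RefSeq windows (GRCh38.p14) were found for 8 of the 10 members, with 13 start sites in all, and the 250 bases upstream of each start were searched on both strands, with overlapping matches counted. The hexamer GGGCGG, the core of the GC box, was found in 8 of the 13 windows. Of all 35116 promoter windows of the same length, 42.6% held it. By gene it was found in 7 of the 8, some with several windows, and no share by gene over all promoters was computed. Member windows with GGGCGG were 69.2% to 80% G and C, and those without it 32.4% to 58%. Over all promoters the median was 58% and the upper quartile 68%. Whether the matches follow base composition was not tested. CACCC was found in 6 of the 13 windows, against 54.7% of all windows. The windows of KLF4 and KLF2, the members whose groups did not overlap, are shown with that of KLF6, whose groups did. They lie at chr9:107489770-107490019 (minus strand), chr19:16324576-16324825 (plus strand) and chr10:3785210-3785459 (minus strand), and are written 5′ to 3′ with GGGCGG on either strand in capitals, and in KLF2 also the match to the MEF2 consensus.
KLF4: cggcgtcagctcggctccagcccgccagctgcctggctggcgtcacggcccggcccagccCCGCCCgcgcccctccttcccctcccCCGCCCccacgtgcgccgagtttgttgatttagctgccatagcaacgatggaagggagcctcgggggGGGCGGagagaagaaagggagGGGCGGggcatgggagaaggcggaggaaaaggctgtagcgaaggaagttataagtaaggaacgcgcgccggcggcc
KLF2: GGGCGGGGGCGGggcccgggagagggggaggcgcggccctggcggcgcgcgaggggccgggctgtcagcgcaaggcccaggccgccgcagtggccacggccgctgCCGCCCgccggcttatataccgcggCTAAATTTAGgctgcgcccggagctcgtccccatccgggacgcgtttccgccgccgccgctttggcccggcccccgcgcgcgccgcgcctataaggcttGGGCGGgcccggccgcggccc
KLF6: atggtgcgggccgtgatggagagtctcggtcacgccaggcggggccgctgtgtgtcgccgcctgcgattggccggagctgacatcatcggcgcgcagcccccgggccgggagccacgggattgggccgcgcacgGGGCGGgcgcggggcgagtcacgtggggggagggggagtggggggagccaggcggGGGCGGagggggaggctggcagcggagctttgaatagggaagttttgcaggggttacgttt
The KLF4 window held 4 GGGCGG matches, the KLF2 window 4 and the KLF6 window 2, and none of these 3 windows held CACCC. Other members whose groups overlapped had as many matches or more, with 6 in a KLF11 window and 4 in a KLF7 window. KLF2 was the only member with a match to the MEF2 consensus, which 2.8% of all windows held. The CArG box, the binding consensus of serum response factor, was matched in 1 of the 13 windows, 1 of the 4 of KLF7, and in 1.16% of all windows. Such matches describe the letters of these windows and do not show binding.

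The 6 arrays had medians from 4.46 to 4.50 and upper quartiles from 6.36 to 6.41 on the log2 scale, and pairs of arrays correlated at 0.977 to 0.981 over all probe sets. The file holds no detection calls, so the background of single probe sets is unknown. The 7 mesenchymal markers of the line, VIM, CD44, SPARC, FN1, CAV1, AXL and ZEB1, had mean levels from 10.1 to 19.8. The 6 endothelial markers, which the cultures should lack, had mean levels from 2.79 to 4.88, and their average was 3.31 to 3.61 on EP300 arrays and 3.43 to 3.45 on control arrays. The 5 measured leukocyte markers averaged 4.48 to 4.65 on EP300 arrays and 4.50 to 4.72 on control arrays. The 7 epithelial markers averaged 4.99 to 5.51 on EP300 arrays and 5.21 to 5.36 on control arrays, and EPCAM, CLDN4 and CDH1 had means below the array medians in both groups. The keratin genes KRT18 and KRT8 lay above the upper quartile. KRT18, named after its values were seen, had 9.82, 10.15 and 10.08 in EP300 cultures, against 11.42, 10.85 and 11.10 in control cultures. The KRT18 difference was -1.11 (limma adjusted p = 0.592). Its EP300 values lay wholly below its control values, as for 5.91% of all probe sets. Of the 7 epithelial markers, 3 had a lower and 4 a higher mean in EP300 cultures. CLDN7, also named after its values were seen, had 5.58, 5.55 and 5.63 in EP300 cultures, against 5.43, 5.45 and 5.07 in control cultures. The EP300 values of CLDN7 lay wholly above its control values, as for 6.3% of all probe sets. KRT8 averaged 7.33 ± 0.34 in EP300 cultures and 6.96 ± 0.11 in control cultures (SD, n = 3 each). The 4 measured luminal markers, ESR1, PGR, GATA3 and FOXA1, averaged 4.06 to 4.38 on EP300 arrays and 4.42 to 4.49 on control arrays, close to the array medians. The part of these markers in the KLF values was not tested. The EP300 transcript itself was not analysed here, and CREBBP averaged 10.07 ± 0.54 in EP300 cultures and 9.81 ± 0.33 in control cultures (log2, SD, n = 3 each).

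Compared with control cultures, EP300 cultures had a lower mean for 6 of the 9 measured KLF genes and a higher mean for 3. The median difference was -0.07 on the log2 scale, against 0.00098 over all probe sets, of which 49.8% were lower. By limma, 0 of the 9 passed an adjusted p of 0.05 over all 21448 probe sets (adjusted p from 0.735 to 0.973), and the share of all probe sets that passed was 0% in either direction. At an unadjusted p below 0.05, 1 member was lower and 0 were higher, where 3.07% of all probe sets were lower and 3.45% higher. The 3 EP300 values lay wholly below the 3 control values for 2 members, KLF4 and KLF2, as they did for 5.91% of all probe sets, and wholly above them for 0 members, against 6.3%. These counts describe genes chosen with the same contrast in view, and nothing is read from them. In these bulk cultures fewer cells with a transcript and less RNA per cell cannot be told apart.

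**Figure D1:**
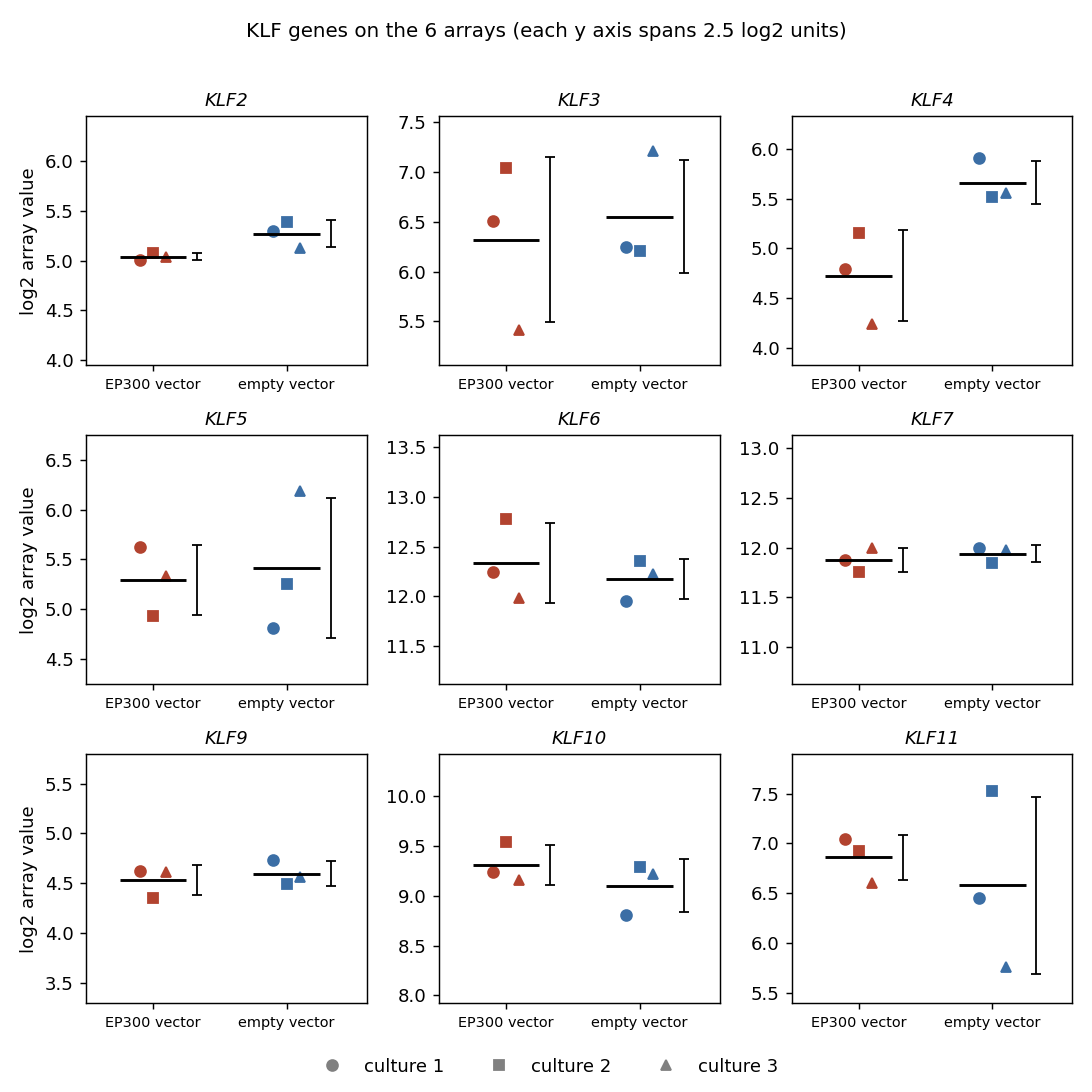
Log2 array values of the 9 measured KLF genes, with EP300 cultures left of control cultures. Points are single cultures, horizontal bars group means and vertical bars 1 SD beside them, and all panels span the same number of log2 units on axes that do not start at 0. KLF4 and KLF2 show no overlap between the groups, and KLF3, KLF5 and KLF11 show the widest scatter.

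KLF4, which restrains the cell cycle in epithelia and is one of the factors used to reprogram cells to pluripotency, showed the largest difference of the 9. Its values were 4.79, 5.15 and 4.24 in EP300 cultures 1 to 3, against 5.91, 5.51 and 5.56 in control cultures 1 to 3. Every EP300 culture was below every control culture, with a gap of 0.36 between the closest values, and EP300 culture 3 was the lowest. The difference was -0.93 (95% interval -1.54 to -0.33), a 1.91-fold lower value in EP300 cultures, and the limma adjusted p was 0.735. It stood at percentile 0.284 of all differences, counted from the most negative. With single arrays left out the difference ran from -1.15 without EP300 culture 2 to -0.69 without EP300 culture 3, and groups that do not overlap fix its sign there. Both group means lay between the median and the upper quartile of the arrays, where an unknown background can compress a fold. The value of EP300 culture 3, 4.24, lay below the array medians (4.46 to 4.50).

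KLF2, a factor of endothelial flow response and T cell quiescence that is closely related to KLF4, was the other member whose groups did not overlap. It had 5.01, 5.08 and 5.03 in EP300 cultures, against 5.30, 5.39 and 5.12 in control cultures. The closest values of the groups, EP300 culture 2 and control culture 3, were 0.047 apart. As for KLF4, both group means lay between the median and the upper quartile of the arrays, where the background is unknown. The difference was -0.23 with a 95% interval from -0.68 to 0.22 (limma adjusted p = 0.89), and it ran from -0.31 to -0.17 with single arrays left out. The pooled SD within groups was 0.0988, at percentile 2.42 of all probe sets, so the separation came with little scatter and a small difference. The limma SE of 0.200 also draws on the variances of all probe sets, so the scatter of KLF2 alone does not set the interval.

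KLF5, which promotes proliferation in epithelia, averaged 5.29 ± 0.35 in EP300 cultures and 5.41 ± 0.70 in control cultures. These means also lay between the median and the upper quartile of the arrays, with the same limit of an unknown background. Control cultures held both the lowest value of the 6, 4.81 in culture 1, and the highest, 6.19 in culture 3. The difference of -0.12 (95% interval -0.90 to 0.66) became 0.27 without control culture 3 and 0.06 without EP300 culture 2, so its sign depended on single arrays.

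KLF6, an injury-inducible factor with growth-inhibitory roles, and KLF7, best known from neurons, were measured far above the upper quartile of the arrays. KLF6 had 12.25, 12.78 and 11.98 in EP300 cultures, against 11.96, 12.35 and 12.22 in control cultures, a difference of 0.16 (95% interval -0.41 to 0.73) with overlapping groups. Without EP300 culture 2, the culture with the highest value, the KLF6 difference was -0.06. KLF7 had 11.87, 11.76 and 11.99 in EP300 cultures, against 12.00, 11.84 and 11.98 in control cultures. Its difference of -0.07 had a 95% interval from -0.52 to 0.38, so a change of KLF7 by 1 log2 unit in either direction lies outside that interval, and without EP300 culture 2 it was -0.0069. The pooled SD of KLF7 was 0.103, at percentile 2.74 of all probe sets. Its interval rests on a limma SE of 0.201, which also draws on the variances of all probe sets.

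KLF3, the member that represses through CTBP proteins, was the most variable within groups, with a pooled SD of 0.713 at percentile 98.4 of all probe sets. It had 6.51, 7.04 and 5.41 in EP300 cultures, against 6.24, 6.20 and 7.21 in control cultures. The lowest value was in EP300 culture 3 and the highest in control culture 3. The difference of -0.23 (95% interval -1.18 to 0.71) was 0.22 without EP300 culture 3, 0.10 without control culture 3 and -0.59 without EP300 culture 2.

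Of the members that recruit SIN3A, KLF9, KLF10 and KLF11 were measured. KLF9, a target of glucocorticoid and thyroid hormone receptors, had 4.62, 4.35 and 4.61 in EP300 cultures, against 4.73, 4.49 and 4.56 in control cultures. The groups overlapped, the difference was -0.07 (95% interval -0.53 to 0.39), and the values lay close to the array medians, which limits what this probe set can show. KLF10, found as a TGF-beta inducible early gene, had 9.24, 9.54 and 9.16 in EP300 cultures, against 8.80, 9.29 and 9.22 in control cultures. Its difference of 0.21 (95% interval -0.30 to 0.72) stayed above 0 with each array left out, from 0.06 to 0.30, with overlapping groups.

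KLF11, a second TGF-beta inducible factor, had 7.05, 6.93 and 6.61 in EP300 cultures, against 6.45, 7.53 and 5.76 in control cultures. The 3 EP300 values all lay within the range of the control values, which spanned 1.77 log2 units. The difference was 0.28 with a 95% interval from -0.60 to 1.16. Without control culture 2 it was 0.76 and the EP300 values lay wholly above the 2 left in the control group, which raised the count of members at an unadjusted p below 0.05 in the higher direction from 0 to 1, and without control culture 3 it was -0.13.

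**Figure D2:**
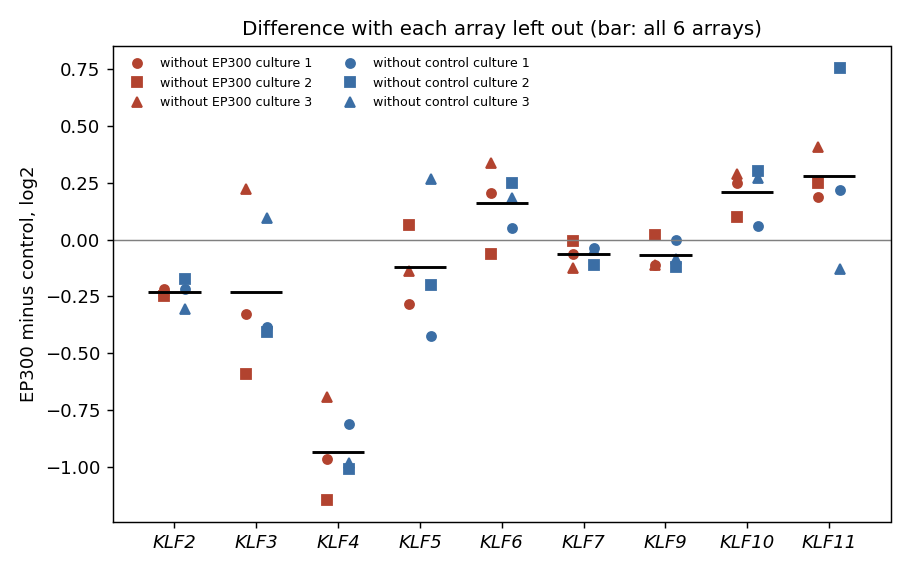
Difference of each KLF gene, EP300 minus control on the log2 scale, with all 6 arrays (bar) and with each single array left out (points, by group and culture). KLF4 runs from -1.15 to -0.69 and KLF2 from -0.31 to -0.17, with a sign that the lack of overlap fixes, and KLF3, KLF5, KLF6, KLF9 and KLF11 lie on both sides of 0.

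EP300 culture 2 was highest of the 6 arrays for 2 genes and lowest for 2, and control culture 1 was highest for 3 and lowest for 3, so control culture 1 held an extreme value for 6 of the 9 members. Control culture 3 was highest for KLF3 and KLF5 and lowest for KLF11, the 3 members with the largest pooled SD.

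The 7 other measured KLF genes had differences from -0.46 to 0.50 with a median of -0.07, and 0 of 7 passed the limma adjusted or unadjusted p of 0.05. Without control culture 1 the unadjusted count was 1 lower, and without EP300 culture 2 it was 1 higher. Over all probe sets, 0% passed the adjusted p, and 3.07% were lower and 3.45% higher at the unadjusted p. Nothing is read from the counts of these short lists. KLF12 and KLF8, which share the CTBP contact with KLF3, differed by 0.50 (95% interval -0.34 to 1.34) and -0.22 (95% interval -0.80 to 0.36). The KLF12 difference was 0.057 without EP300 culture 3 and 0.87 without EP300 culture 2. KLF1, the erythroid factor, differed by -0.46 (95% interval -1.06 to 0.15), KLF14 by -0.38, KLF17 by -0.07, KLF15 by 0.10 and KLF16 by 0.20. With single arrays left out, KLF1 ran from -0.71 without control culture 1 to -0.23 without control culture 2, KLF14 from -0.53 without EP300 culture 2 to -0.14 without control culture 1, and KLF16 from 0.037 without EP300 culture 3 to 0.48 without EP300 culture 2. KLF1, KLF8, KLF14, KLF15 and KLF17 had means below the array medians in both groups, so their probe sets say little about a difference. The 9 SP factors, which carry the same kind of zinc fingers, had a median difference of 0.02. Of these, 0 of 9 passed either threshold, against the same shares of all probe sets. SP1 differed by -0.02 (95% interval -0.50 to 0.46), SP3 by 0.41 and SP5 by -0.29. No test of KLF4 against the rest of the family was made.

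**Figure D3:**
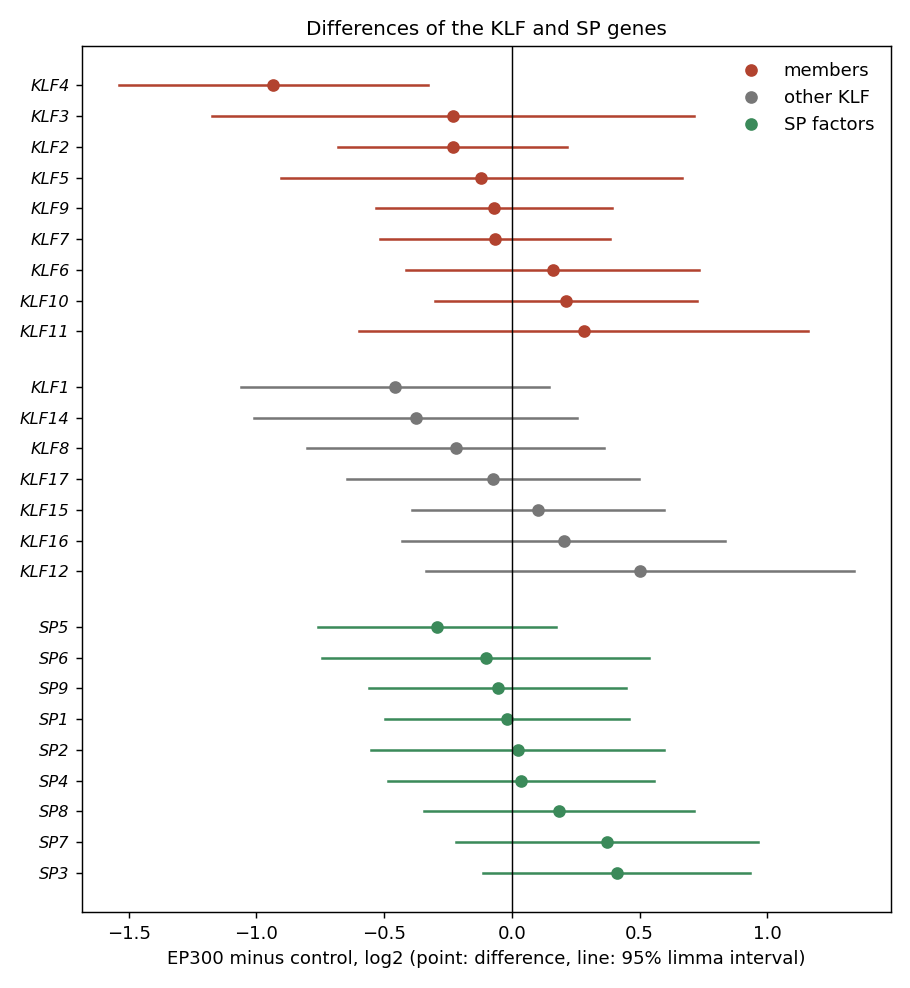
EP300 minus control on the log2 scale for the 9 members, 7 other KLF genes and 9 SP factors. Points are differences and lines 95% limma intervals, ordered within each set. Before any adjustment over all probe sets, the interval of KLF4, from -1.54 to -0.33, is the only one of the 25 that does not cross 0. That equals an unadjusted limma p below 0.05, which 3.07% of all probe sets had as lower and 3.45% as higher. The members were chosen with this contrast in view, so nothing is read from that count.

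Genes around the KLFs were described from 7 further lists of partners, regulators and reported targets, besides the other KLF and SP lists. By limma 0 genes of these lists passed an adjusted p of 0.05. At an unadjusted p below 0.05, 3.07% of all probe sets were lower and 3.45% higher. The lists were chosen with earlier results of these data known, so nothing is read from their counts. Of 15 measured cofactors, 2 were lower and 0 higher at an unadjusted p below 0.05. These were SIN3A, the scaffold that KLF9, KLF10 and KLF11 bind, at -0.53 (95% interval -1.02 to -0.05), and the deacetylase gene HDAC3 at -0.53. HDAC3 is named after its value was seen. HDAC2 differed by 0.51 (95% interval -0.08 to 1.10) and CREBBP by 0.26. The cofactor count was 0 without control culture 3 or EP300 culture 3, and 1 without control culture 1 or EP300 culture 1, while 2 cofactors were higher without control culture 2 and 1 without EP300 culture 2 or EP300 culture 3. Of 8 ubiquitin ligases, several of which degrade KLF2, KLF4 or KLF5, 1 was higher, WWP2 at 0.50 (95% interval 0.00121 to 1.00), and only with all 6 arrays or without control culture 3 did it stay under that p among the sets of arrays tried. VHL differed by -0.19.

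The ERK5 and MEF2 pathway switches on KLF2 and KLF4 in endothelial cells. Of its 7 genes, 0 were lower and 1 was higher at an unadjusted p below 0.05, against 3.07% and 3.45% of all probe sets. The list median was 0.21. The higher count was 2 without EP300 culture 1. The 1 gene with all arrays, MEF2C, had 4.997, 5.040 and 4.332 in EP300 cultures, against 3.588, 3.136 and 3.136 in control cultures, with the control mean below the lower quartile of the arrays (3.47 to 3.50). The MEF2C difference was 1.50 ± 0.26 (SE, limma adjusted p = 0.436). KLF2 and KLF4 were both lower on every EP300 array than on any control array, as were 5.91% of all probe sets. A link of MEF2C with KLF2 or KLF4 was not tested. MAPK7, which encodes ERK5, differed by -0.31 (95% interval -0.84 to 0.23), -0.097 without control culture 1 and -0.46 without control culture 2.

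Immediate early genes are induced by serum and stress along with KLF4, KLF6 and KLF10. Of 14 measured, 3 were lower and 0 higher at an unadjusted p below 0.05, against 3.07% and 3.45% of all probe sets. The list median was -0.38. FOS had 3.35, 3.85 and 3.76 in EP300 cultures, against 4.91, 4.30 and 4.63 in control cultures, a difference of -0.96 ± 0.25 (SE, limma adjusted p = 0.735). FOSB at -0.97 and EGR3 at -0.62, both named after their values were seen, were the others. MYC differed by 0.29, and by 0.10 without control culture 3. Among probe sets above the median level, which leaves out FOS and EGR3, the count was 1.

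Of 6 measured glucocorticoid response genes, 1 was lower and 0 higher at an unadjusted p below 0.05, with a median of -0.11. Over all probe sets, 3.07% were lower and 3.45% higher at that p. The lower gene was the kinase gene SGK1, at 7.89, 7.88 and 7.96 in EP300 cultures, against 9.28, 8.12 and 8.72 in control cultures. Its difference was -0.80 ± 0.29 (SE, limma adjusted p = 0.746), and without control culture 1 the count was 0. The glucocorticoid receptor target ZBTB16 differed by 0.24. Of 8 TGF-beta pathway genes 0 passed in either direction, with a median of 0.09, TGFBR2 at 0.56 (95% interval -0.06 to 1.18) and SMAD4 at -0.51 (95% interval -1.09 to 0.07). That count was 1 higher without control culture 2, control culture 3, EP300 culture 1 or EP300 culture 2, and 1 lower without EP300 culture 3.

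The list of reported KLF targets held 27 measured genes, some of them shared with other lists. At an unadjusted p below 0.05, 3 were lower and 0 higher, against 3.07% and 3.45% of all probe sets. The list median was -0.0042. TAGLN, a smooth muscle gene that KLF4 is known to repress in vascular muscle, averaged 13.77 ± 0.16 in EP300 cultures and 14.95 ± 0.24 in control cultures (SD, n = 3 each). The TAGLN difference was -1.18 (limma adjusted p = 0.476), and it passed with a variance trend and robust estimation (limma adjusted p = 0.034). In all other alternative settings TAGLN did not pass, with limma adjusted p from 0.288 to 0.866. ACTA2, a second gene of that kind named after its value was seen, differed by -0.80. CCND1, a cell cycle gene that KLF4 represses and KLF5 activates, averaged 11.03 ± 0.21 in EP300 cultures and 11.72 ± 0.21 in control cultures, a difference of -0.69. CDKN1A, a cell cycle inhibitor induced by KLF4 and KLF6, averaged 7.26 ± 0.14 in EP300 cultures and 6.89 ± 0.11 in control cultures. Its EP300 values lay wholly above its control values, as for 6.3% of all probe sets. The CDKN1A difference of 0.38 had a 95% interval from -0.08 to 0.84. CDH1 differed by 0.71 and TXNIP by 0.23, both at levels below the array medians. TXNIP differed by 0.011 without control culture 3 and 0.44 without control culture 1, and CDH1 by 0.33 without EP300 culture 1. The count of higher targets was 1 without control culture 1 or control culture 3, and 3 without EP300 culture 2.

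**Figure D4:**
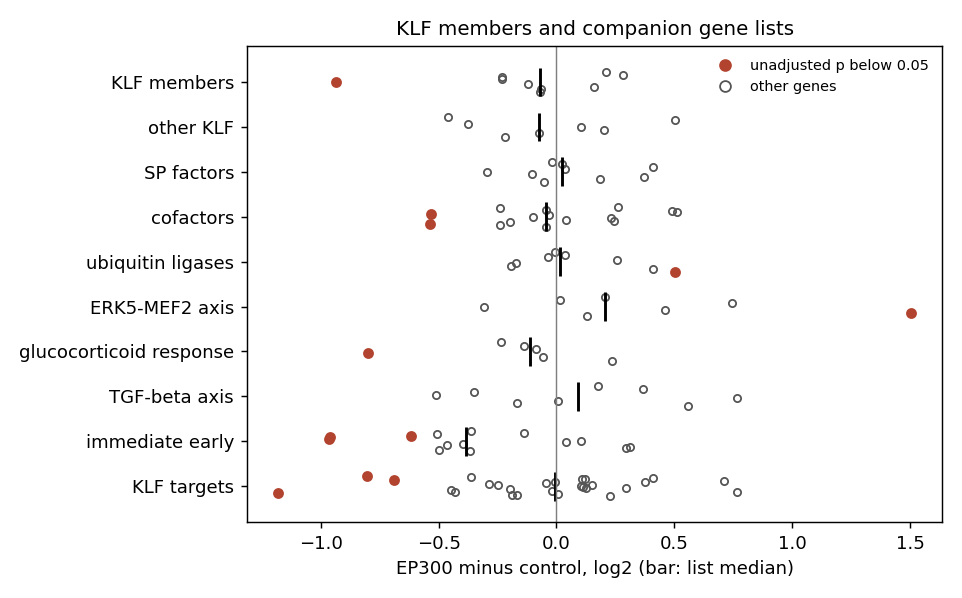
EP300 minus control on the log2 scale for each measured gene of the KLF members and 9 companion lists, with list medians as bars. Filled points had an unadjusted limma p below 0.05. The immediate early list has the lowest median, -0.38, and in the KLF members KLF4 stands apart at -0.93.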

How the data were processed

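RNA from 6 cultures was labelled with the WT PLUS kit and hybridised to Affymetrix arrays, per the labels' protocols. The authors' deposited table holds log2 values for 21448 probe sets. That scale was inferred from the values, which run from 1.79 to 19.9. The submitters' processing notes name Partek 6.6. The normalization is not given in the sources used here, and neither are the summarisation and the genome build.

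Groups were taken from the sample titles. EP300 minus control was fitted across the whole table by limma 3.58.1 (lmFit, eBayes; R 4.3.3) without filter, covariate or block, and p-values were adjusted by Benjamini-Hochberg across the whole table, with calls made below 0.05. Errors are SD over 3 cultures, limma standard errors or 95% intervals, and the number of arrays limits the precision. Limma moves the variance of each probe set toward a value common to all, and its errors and intervals include that step. The fit was tested on simulated data, where recovery was required only for added differences larger than that of any KLF member. That test does not show that differences of the members' size are found.

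The platform annotation named 17709 of the 21448 probe sets. The members and lists were chosen with earlier results of these data known. Besides the members and other KLF genes, the text names for each list the gene with the smallest p in each direction, and CREBBP, MEF2C, CDKN1A, CCND1, SP1 and TXNIP, with later choices marked. Alternatives were quantile normalization, median centring, a filter on low levels, a single probe set for each gene, limma's variance trend with robust estimation, the replicate number as a block, and each array left out. Promoter sequences are RefSeq's (GRCh38.p14), with KLF3 and KLF10 not matched. Protein sequences were not used here.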

Additional observations from a re-analysis of the deposited data

How the results depend on the processing

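Over the 12 alternative settings, 0 KLF members passed, with limma adjusted p from 0.573 (KLF4 among probe sets above the median level) to 1. The groups of KLF4 and KLF2 also did not overlap with quantile normalization or median centring, the settings that change their values, while their signs with single arrays left out are fixed by the lack of overlap. KLF7 and KLF10 kept their signs in the settings tried. Leaving out single arrays moved KLF3 from -0.59 to 0.22, KLF5 from -0.42 to 0.27, KLF6 from -0.062 to 0.34, KLF9 from -0.12 to 0.018 and KLF11 from -0.13 to 0.76. The counts of higher members at an unadjusted p below 0.05 and of higher members without overlap each ran from 0 to 1. Among other genes the ranges were -0.41 to 0.026 for KLF8, -0.051 to 0.21 for KLF15, -0.29 to 0.10 for KLF17, -0.052 to 0.45 for CREBBP and -0.14 to 0.065 for SP1. The ranges were -0.36 to -0.093 for VHL, 0.086 to 0.32 for ZBTB16, 0.31 to 0.68 for HDAC2, -0.71 to -0.28 for SMAD4, 0.37 to 0.83 for TGFBR2 and -1.09 to -0.51 for SGK1. Medians ran from -0.12 to -0.0069 for the members, -0.14 to 0.056 for the other KLF genes, -0.034 to 0.12 for SP factors, -0.10 to 0.031 for KLF targets, -0.16 to -0.041 for cofactors, -0.016 to 0.13 for ligases, 0.16 to 0.40 for the ERK5 and MEF2 genes, -0.29 to -0.056 for glucocorticoid response genes, 0.0022 to 0.20 for TGF-beta genes and -0.50 to -0.21 for immediate early genes. Counts at an unadjusted p below 0.05 ran from 0 to 1 in each direction for the other KLF genes and the TGF-beta genes, from 0 to 2 in each direction for cofactors, from 0 to 1 for higher ligases and lower glucocorticoid response genes, from 1 to 2 for higher ERK5 and MEF2 genes and from 0 to 3 for higher KLF targets.

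With the replicate number as a block, 0 probe sets were called and 1295 had an unadjusted p below 0.05, against 1399 without it. The block left 0 cofactors lower and 0 ligases higher at that p, and gave 2 higher TGF-beta genes and 2 higher KLF targets. KLF4 had an adjusted p of 0.806 with the block. Same-numbered cultures did not deviate together (correlations of -0.00153, -0.00528 and -0.00893), so the numbers were not taken as pairs. With a variance trend and robust estimation 1 KLF target (TAGLN) was called, as were 4 of all probe sets, and 1 cofactor was lower. The count of higher ligases was 0 with that setting, with quantile normalization, with median centring and with 1 probe set per gene. With the filter on low levels, which leaves fewer genes, the median of the other KLF genes was 0.35 and that of the ERK5 and MEF2 genes 0.073, with 0 higher ERK5 and MEF2 genes and 1 lower immediate early gene. The cause of the other changes was not tested. With 3 arrays in each group and no detection calls, differences of the low probe sets are limited by an unknown background.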
